A study of Homo sapiens with 12 samples.

Results

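The non-coding transcripts that annotated protein-coding genes give off beside their mRNAs were examined in the human oesophageal cancer line TE-1. Members were the annotated rows of the deposited lncRNA transcript table that belong to a gene of the coding-gene table, and they were chosen by their level, a mean over the 12 libraries of no less than 1 FPKM. FPKM is a level per transcript length and per sequenced library. This left 5544 transcripts of 3192 genes, out of 107659 rows in the lncRNA table and 6496 rows with such a mean. Of the other rows with such a mean, 717 were annotated outside coding genes and 235 were newly assembled. Because the mean level chose the members, it is given as a description. The rule itself uses no difference between groups, but a member that is high in 1 group alone can reach the mean through that group.

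The 12 libraries formed 4 groups of 3, all from TE-1 cells transfected with a vector and collected after 48 hours. OE_IFI6 carried a vector that overexpresses IFI6, an interferon-stimulated gene, and OE_control the empty control vector. The group sh_IFI6 carried a hairpin vector against IFI6 and sh_control the control hairpin. Nothing in the labels states that the libraries within a group are separate cultures. The p-values therefore speak only of the spread among libraries, and part or all of it could be technical. The model is 1 line with 1 vector per group.

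A gene transcribed by RNA polymerase II can yield RNAs that keep 1 or more introns or that lack an open reading frame. The annotation calls the first kind a retained intron transcript and the second a processed transcript. Intron-retaining RNAs are often held in the nucleus or degraded after export by nonsense-mediated decay, and genes for splicing factors are well known for them. A read from a shared exon does not tell which transcript it came from, so the level of each transcript is an estimate that divides the reads of a gene among its transcripts.

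The retained intron itself is what sets such a transcript apart from the mRNA. The intron that GAPDH-208 keeps is shown because this was the most abundant member, and that of OXA1L-207 because this member rose with IFI6 overexpression. Both lie between coding exons. Sequences were read from the GENCODE 29 transcripts (GRCh38), 5′ to 3′ with 10 exon bases on each side, and the capitals mark the GT and AG at which the mRNA is spliced. The GAPDH window is chr12:6536781-6536929 on the plus strand with an intron of 129 bases, and the OXA1L window is chr14:22770269-22770470 on the plus strand with an intron of 182 bases.
GAPDH-208: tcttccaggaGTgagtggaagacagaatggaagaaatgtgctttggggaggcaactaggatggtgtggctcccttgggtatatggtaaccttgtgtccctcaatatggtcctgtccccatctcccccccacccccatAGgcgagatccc
OXA1L-207: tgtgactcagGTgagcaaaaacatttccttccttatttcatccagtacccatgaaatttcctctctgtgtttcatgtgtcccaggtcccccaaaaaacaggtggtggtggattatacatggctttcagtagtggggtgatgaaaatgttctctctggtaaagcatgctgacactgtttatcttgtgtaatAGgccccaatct

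The other members past the test that keep a whole intron between coding exons are shown by their splice sites. The donor line gives the last 3 exon bases and the first 6 intron bases, and the acceptor line the last 20 intron bases and the first 3 exon bases. The introns are chr16:84059429-84060681 on the minus strand for MBTPS1-204 (1253 bases), chr19:3575661-3576260 on the plus strand for HMG20B-212 (600 bases), chr19:12938771-12939133 on the plus strand for CALR-205 (363 bases) and chr1:186676185-186676466 on the minus strand for PTGS2-203 (282 bases).
MBTPS1-204 donor: aagGTgagt
MBTPS1-204 acceptor: gatgttgctgctaaccacAGgaa
HMG20B-212 donor: aagGTggga
HMG20B-212 acceptor: cccttcccctcccccgccAGaag
CALR-205 donor: gagGTaacg
CALR-205 acceptor: ccctctaatcccccacttAGacg
PTGS2-203 donor: tagGTaaac
PTGS2-203 acceptor: tatttattttgtgcaaatAGgag

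Facts of the whole series bear on these results. IFI6 stood at 312 ± 45.0 FPKM in OE_IFI6 (SD, n = 3), 24.7 ± 5.92 in OE_control, 14.6 ± 0.646 in sh_IFI6 and 23.4 ± 1.97 in sh_control, so its level followed the labels, and no transcript of IFI6 was a member. On the first principal component of the members' log2 levels, which held 12.2% of the variance, the 3 OE_control libraries lay between -36.5 and -25.1 and the other 9 between 4.28 and 15.6. The line label was checked on 17 epithelial and squamous markers, of which 7 reached 1 FPKM. KRT8 and KRT18 were high, while KRT5, KRT6A, SOX2 and EPCAM were listed at 0 in the 12 libraries. Fibroblast markers summed to 7.80 to 9.95 FPKM and immune and endothelial markers to 1.54 to 3.28 FPKM per library. The number of reads behind each value is unknown, and in bulk RNA fewer cells of a type and less RNA per cell cannot be told apart.

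Most members were retained intron transcripts. GENCODE 29 typed 3904 members (70.4%) as retained intron and 1595 (28.8%) as processed transcript, and retained intron transcripts held 76.0% of the members' summed FPKM. Of the other 45, 24 had no match there, 5 were typed as protein coding and 5 as targets of nonsense-mediated decay. The label of non-coding transcripts therefore held for nearly the whole set in that release. The types had like levels, with a median of 2.12 FPKM for retained intron and 2.10 for processed transcripts.

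The typical member was a minor product of its gene. The median level was 2.11 FPKM, with 1219 members at 5 FPKM or more, 590 at 10 or more and 48 at 100 or more. The median member held 8.87% of its gene's FPKM, with quartiles of 3.95% and 18.6%. In 187 cases a member held more than 50% of its gene, and 1721 held under 5%. The plot of share and level shows both types with the same falling shape. At the threshold, ZNF500-207 and AKR1B1-213 lay just inside and ATXN2L-211 and PNPLA6-215 just outside, all 4 within 0.01 FPKM of it.

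**Figure D1:**
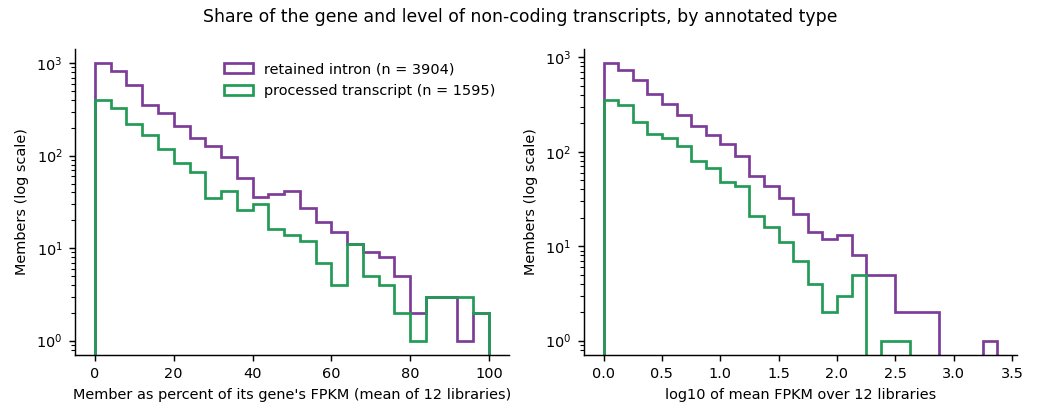
Histograms of the members by percent of their gene's FPKM (left) and by log10 of mean FPKM over the 12 libraries (right), with the number of members on a log scale. Retained intron (n = 3904) and processed transcripts (n = 1595) both crowd at low shares and low levels, with medians of 8.77% and 9.09% of the gene.

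The most abundant members included transcripts of glycolytic, ribosomal and cytoskeletal genes. GAPDH-208, from the gene of a glycolytic enzyme, was the highest, at 1268 to 2458 FPKM per library with a median of 1847, and held 27.6% of its gene. RPS18-235, from a gene of the small ribosomal subunit, ranged from 505 to 861 FPKM and held 48.9% of its gene. ENO1-203, from the gene of the glycolytic enzyme enolase, ranged from 393 to 887 FPKM and held 67.7%. TUBA1B-201 from an alpha-tubulin gene and ACTB-206 from the beta-actin gene held 75.8% and 77.1%. The split of these genes into transcripts is uncertain, since reads of shared exons are divided among a gene's transcripts. Near-identical copies elsewhere in the genome would also make the reads given to a gene uncertain, which was not tested.

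Not all of the abundant members were steady. EEF1G-203, from the gene of a translation elongation factor subunit, ranged from 2.05 to 575 FPKM, and its share of the gene from 0.194% to 74.7%. RPL21-209 ranged from 72.3 to 809 FPKM. RPL5-210 kept within 306 to 663 FPKM. NDRG1-212, from a hypoxia-induced gene, ranged from 143 to 621 FPKM.

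In some genes the non-coding transcript carried nearly the whole signal. Among members of at least 10 FPKM, a set chosen after its values were seen, ARPC5-204, from the gene of an Arp2/3 complex subunit, held 99.0% of its gene (95.9% to 99.7% per library). ORAI1-203, from the gene of a store-operated calcium channel, held 94.8%, ARGLU1-204 held 94.0% and HOOK2-224 held 91.0%. METTL2A-202 held 89.8% at 29.8 to 39.9 FPKM, and NGRN-201 held 86.9% at 20.5 to 27.4 FPKM. For these genes the gene's level in the deposited table is thus mostly the level of a transcript without an annotated product.

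Many genes gave several members. There were 1922 genes with 1 member and 252 with 4 or more. GUK1, the gene of guanylate kinase, and RBM39, the gene of a splicing factor, had 11 each, with summed levels of 51.1 and 41.0 FPKM. NDRG1 had 10, summing to 426 FPKM. Members of the same gene share its reads and are not independent.

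The annotated type went with the structure. Of 3901 retained intron members with a sequence, 1445 held a whole intron of a coding transcript of the gene, counted where it was at least 50 bases long with GT and AG ends, against 180 of 1593 processed transcripts. Counting also a start or an end inside such an intron, 3792 retained intron members held intron sequence and 109 did not. For processed transcripts the numbers were 1121 and 472. The 1984 distinct introns held whole had a median length of 266.5 bases (quartiles 125 and 581), against 1417 bases for the 51140 introns of the same genes that no member held. This describes annotated structures, with no test.

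A group of members spans small nucleolar RNAs, which guide the modification of ribosomal RNA and are released from introns of their host genes. Such an RNA lay inside 59 members of 34 genes. Their median level was 8.75 FPKM, against 2.10 for the other members. RPL21-209 spans SNORD102 and RPL13-207 spans SNORD68, at 478 and 220 FPKM. None of the 59 passed limma's test with overexpression, with knockdown or between the controls. Since 0.139% or fewer of the transcripts tested passed in either direction of each comparison, this count says nothing particular to them. The rule that chose members by level makes their level a description.

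Members varied much more between libraries of a group than their genes did. The median coefficient of variation within a group was 37.8% for members and 12.8% for the totals of their genes. At 20 FPKM and above it was still 28.0%, against 11.3% for gene totals of that level. Pearson correlations of log2 levels between libraries of a group ran from 0.705 to 0.745 for members and from 0.966 to 0.980 for their genes. These points share libraries, and genes are not independent. Between groups the members' correlations were 0.668 to 0.729.

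**Figure D2:**
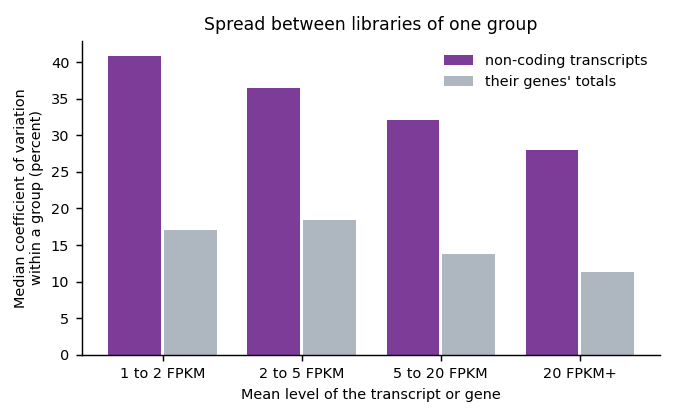
Median coefficient of variation between the 3 libraries of a group (percent), by mean level, for non-coding transcripts and for the totals of their genes. The members' bars stand at 40.9% to 28.0% from the lowest to the highest level, above those of the genes at 17.0% to 11.3%.

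Listed levels of single members could differ widely between libraries of a group. There were 182 members listed at 0 in 1 library and at 5 FPKM or more in another of the same group, and 842 had a range of at least 10-fold within a group whose highest library reached 5 FPKM. At the other end, 407 members stayed within a 2-fold range over the 12 libraries. The narrowest of these were CMBL-202 at 30.1 to 37.2 FPKM, PPP4R1-222 at 4.67 to 6.04 and PSMB1-202 at 5.24 to 6.82.

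The share of their genes held by the members together was 17.5% ± 0.0431 in OE_IFI6, 17.1% ± 0.411 in OE_control, 18.6% ± 0.387 in sh_IFI6 and 17.9% ± 0.398 in sh_control (SD, n = 3). With overexpression the libraries of the 2 groups overlapped (17.4%, 17.5% and 17.5% against 16.8%, 17.6% and 17.0%). With knockdown they overlapped too (18.2%, 18.6% and 19.0% against 17.5%, 18.2% and 17.9%). Exact permutation tests, two-sided with 3 against 3 libraries, gave p = 0.4 for overexpression, 0.2 for knockdown and 0.2 between the controls (0.4, 0.3 and 0.3 after Benjamini-Hochberg adjustment over the 3), where the smallest possible p is 0.1. No difference in the share was detectable with this number of libraries. Over the 1219 members of at least 5 FPKM alone, the shares were 20.6%, 20.6% and 20.5% in OE_IFI6 against 19.7%, 20.3% and 20.1% in OE_control, and 21.5%, 22.2% and 22.3% in sh_IFI6 against 20.2%, 21.2% and 21.1% in sh_control. For those members the treated libraries lay above their controls in both pairs, by 0.547 and 1.15 percentage points, at the smallest p the exact permutation test allows (0.1 for each, 0.15 after adjustment over 3).

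**Figure D3:**
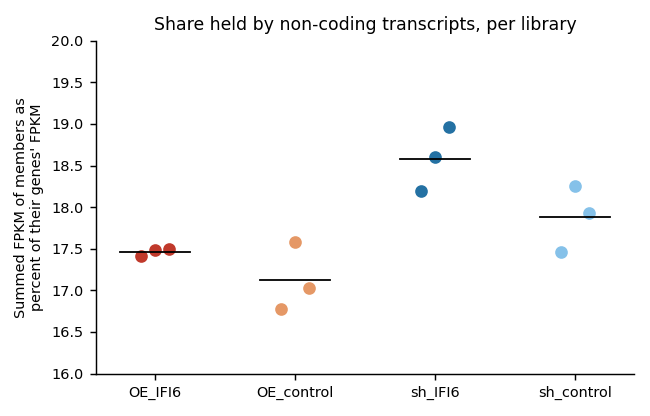
Summed FPKM of the members as a percent of the summed FPKM of their genes in each library (points) with the group mean (bars); the axis runs from 16% to 20%. The 12 libraries lie between 16.8% and 19.0%, and both treated groups overlap their controls.

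The overexpression comparison asks which of these transcripts differ in level with more IFI6. In OE_IFI6 against OE_control, 3 members rose and 8 fell (limma on log2(FPKM + 1), Benjamini-Hochberg adjusted p under 0.05). Over all 6496 transcripts tested, 0.108% rose and 0.139% fell, which is 7 and 9 transcripts with the members among them. The members hold 3 of those 7 rises and 8 of those 9 falls. At an unadjusted p under 0.05 there were 612 of the 5544 members and 735 of the 6496 transcripts tested, members included. The median log2 difference of the members was -0.01. In a fit to the 1360 transcripts of at least 5 FPKM, 11 members rose and 16 fell, where 1.32% and 1.47% of those transcripts did. That minimum is a mean over the 12 libraries, so a member high in 1 group can reach it through that group. HMGCS1-203 and GARS-208 reached it through OE_control and OXA1L-207 through OE_IFI6, each below 5 FPKM in every other group. The plot of called members gives 12 of those that passed in a comparison.

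**Figure D4:**
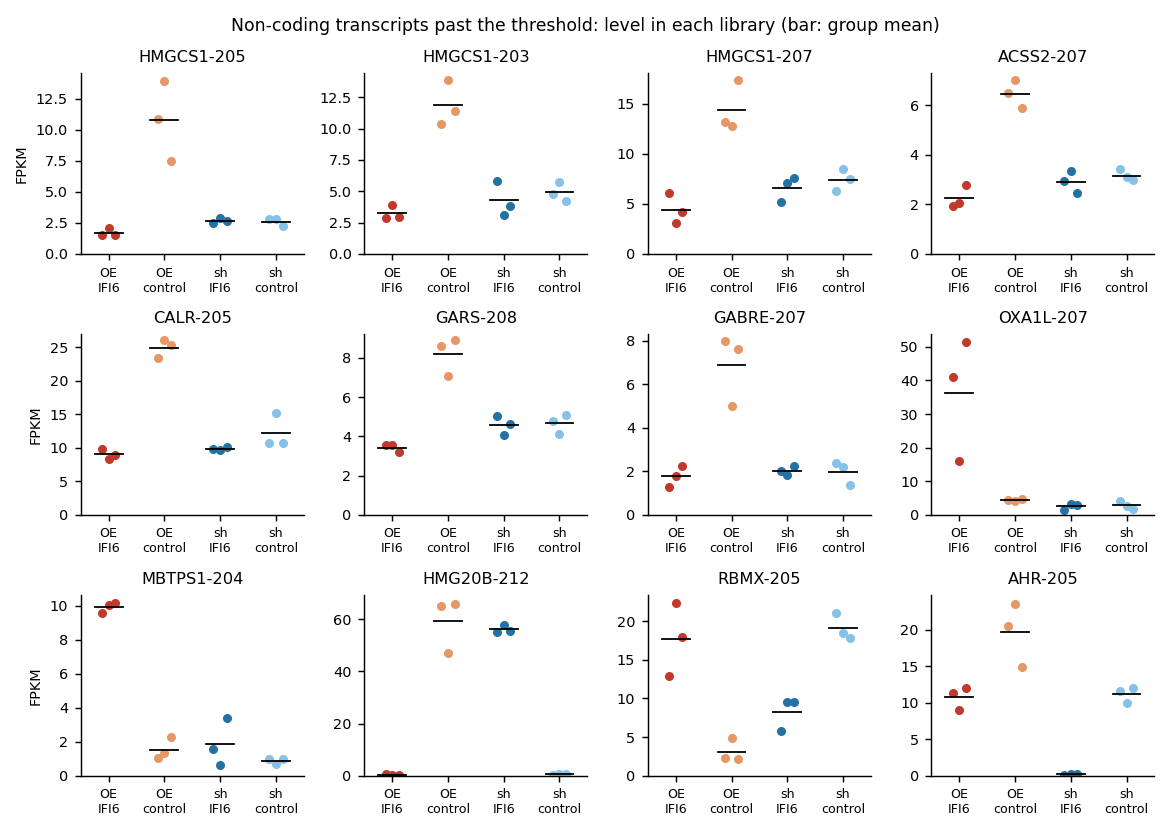
FPKM in each of the 12 libraries (points) and the group mean (bar) for 12 members that passed the test in at least 1 comparison of groups. OE_control stands above the other groups for the HMGCS1, ACSS2, CALR, GARS and GABRE members, and OE_IFI6 alone is high for OXA1L-207 and MBTPS1-204. HMG20B-212 is high in OE_control and sh_IFI6, RBMX-205 is lowest in OE_control, and AHR-205 is near 0 in sh_IFI6 alone.

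OXA1L-207 rose most. OXA1L encodes the insertase that places proteins into the inner mitochondrial membrane, and the member (chr14:22767282-22771761, plus strand, 8 exons) keeps the intron printed above. Its libraries stood at 40.9, 16.1 and 51.3 FPKM in OE_IFI6, and at 4.29, 4.13 and 4.63 in OE_control. The sh_IFI6 libraries stood at 1.29, 3.19 and 3.02 FPKM and the sh_control libraries at 3.99, 2.61 and 1.76. The OE_IFI6 libraries were thus above the other 9, and varied over 3-fold among themselves.

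The log2 difference of OXA1L-207 was 2.65 ± 0.41 (SE; adjusted p = 0.038 in limma), an 8.31-fold ratio of means. Its share of the gene was 54.9% in OE_IFI6 and 9.01% in OE_control, while the rest of the gene stood at 29.7 ± 6.64 against 43.9 ± 1.61 FPKM. Another retained intron transcript of the gene, OXA1L-209, was listed at 0 in the 3 OE_IFI6 libraries and at 3.72, 18.2 and 18.3 FPKM in OE_control, with an adjusted p of 0.089. Leaving out any 1 library ended the OXA1L-207 call (adjusted p 0.057 to 0.13) except without OE_IFI6 2 or sh_IFI6 1. How the reads of OXA1L were divided between these transcripts was not tested.

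MBTPS1-204 rose with less spread. MBTPS1 encodes the site-1 protease, which activates the SREBP transcription factors of sterol synthesis and the stress sensor ATF6. The member (chr16:84053774-84061631, minus strand, 3333 bases) starts in an intron and keeps another whole. It stood at 9.61, 10.1 and 10.2 FPKM in OE_IFI6 and at 1.02, 1.33 and 2.26 in OE_control. In sh_IFI6 it stood at 1.54, 0.656 and 3.43 FPKM, and in sh_control at 0.967, 0.664 and 1.01. No library outside OE_IFI6 came near the OE_IFI6 values.

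The log2 difference of MBTPS1-204 was 2.14 ± 0.32 (adjusted p = 0.029 in limma), a 6.47-fold ratio. The rest of the gene stood at 37.9 ± 4.18 and 39.3 ± 1.11 FPKM, so the share of the gene was 20.8% against 3.76%. The call ended without any 1 library (adjusted p 0.055 to 0.11) except OE_control 3 or an sh_IFI6 library. Against sh_control in place of OE_control, OXA1L-207 and MBTPS1-204 were again higher in OE_IFI6, by 3.19 and 2.55 on the log2 scale (adjusted p = 0.031 for each). In that comparison 0.0308% of the transcripts tested rose and 0.0154% fell. These 2 calls ended without OE_IFI6 1, OE_control 1, OE_control 2 or any sh_control library, for OXA1L-207 also without OE_control 3 or sh_IFI6 3 and for MBTPS1-204 also without OE_IFI6 2 (adjusted p 0.055 to 0.13).

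The third rise was RBMX-205, a processed transcript from the gene of an hnRNP that takes part in splicing. RBMX has near-identical retrocopies, so the reads given to it are uncertain. It stood at 12.8, 22.4 and 17.9 FPKM in OE_IFI6 and at 2.34, 4.86 and 2.17 in OE_control, with a log2 difference of 2.21 ± 0.31 (adjusted p = 0.029 in limma). In sh_control it stood at 21.0, 18.4 and 17.8 FPKM, within the range of OE_IFI6, and against sh_control the difference was -0.13 (adjusted p = 0.98). In sh_IFI6 it stood at 5.76, 9.50 and 9.47 FPKM. The call ended without any 1 of OE_IFI6 2 or 3, OE_control 1 or 3, sh_IFI6 3 and sh_control 1 or 2 (adjusted p 0.052 to 0.10).

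Of the 8 falls, 7 were members of 5 genes whose other transcripts fell too. These genes act in sterol synthesis (HMGCS1, ACSS2), protein folding in the endoplasmic reticulum (CALR), glycine charging of tRNA (GARS) and GABA signalling (GABRE). HMGCS1 encodes the cytosolic synthase that starts the mevalonate pathway, and 3 of its 4 members fell. HMGCS1-205 stood at 1.55, 2.05 and 1.51 FPKM in OE_IFI6 and at 10.8, 13.9 and 7.49 in OE_control, with a log2 difference of -2.09 ± 0.21 (adjusted p = 0.0052 in limma). HMGCS1-203 and HMGCS1-207 differed by -1.60 and -1.53 (adjusted p = 0.029 and 0.048).

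All 3 end inside an intron. The fourth member, HMGCS1-204, stood at 3.49 FPKM in OE_IFI6 and 4.30 in OE_control (log2 difference -0.22, adjusted p = 0.82). The transcripts of HMGCS1 that are no members fell by 1.30 on the log2 scale (adjusted p = 0.00037). In sh_control HMGCS1-205 stood at 2.79, 2.80 and 2.22 FPKM, nearer to OE_IFI6 than to OE_control, and against sh_control it differed by -0.42 (adjusted p = 0.88). No omission of a single library ended the HMGCS1-205 call, but a fit to the 6 libraries alone did (adjusted p = 0.13). For HMGCS1-203 the call lasted without sh_IFI6 1, sh_IFI6 2 or sh_control 3, and for HMGCS1-207 without OE_IFI6 1 or sh_IFI6 1. Leaving out any other single library ended them (adjusted p 0.052 to 0.089 and 0.075 to 0.13).

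CALR-205 comes from the gene of calreticulin, a calcium-binding chaperone, and keeps an intron whole. It stood at 9.77, 8.35 and 8.99 FPKM in OE_IFI6 and at 23.5, 26.1 and 25.3 in OE_control. The groups did not overlap, and the sh_IFI6 libraries (9.80, 9.73 and 10.1) and sh_control libraries (10.8, 15.2 and 10.7) were also below OE_control. Its log2 difference was -1.37 ± 0.19 (adjusted p = 0.029 in limma), beside -0.87 for the gene's other transcripts (adjusted p = 0.0037). It held 1.80% of its gene. The call lasted only without sh_IFI6 1, sh_control 2 or sh_control 3 (otherwise adjusted p 0.053 to 0.10).

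ACSS2-207, from the gene of an acetyl-CoA synthetase, differed by -1.20 ± 0.17 (2.26 ± 0.472 against 6.48 ± 0.569 FPKM, n = 3, adjusted p = 0.029 in limma). GABRE-207, from the gene of a GABA receptor subunit, differed by -1.49 ± 0.22 (1.78 ± 0.471 against 6.87 ± 1.61 FPKM, n = 3, adjusted p = 0.029 in limma). GARS-208, from the gene of the glycyl-tRNA synthetase, differed by -1.05 ± 0.17 (3.43 ± 0.195 against 8.21 ± 0.993 FPKM, n = 3, adjusted p = 0.042 in limma). None of the 3 differed from sh_control by that test (adjusted p 0.88, 0.98 and 0.88). The calls ended without 7, 8 and 11 of the 12 libraries left out singly (adjusted p 0.052 to 0.11). ACSS2-207 lasted without OE_IFI6 3, OE_control 3, sh_IFI6 1, sh_IFI6 2 or sh_control 3. GABRE-207 lasted without OE_IFI6 3, OE_control 2, sh_IFI6 1 or sh_control 3, and GARS-208 without sh_IFI6 1.

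HMG20B-212 was the fall whose gene's other transcripts did not pass the test. The transcripts of HMG20B that are no members differed by -0.43 on the log2 scale (adjusted p = 0.685 in limma). HMG20B encodes a subunit of a histone deacetylase and demethylase complex, and the member (chr19:3575651-3578671, plus strand) keeps an intron of 600 bases. It stood at 0.631, 0.289 and 0.362 FPKM in OE_IFI6 and at 65.1, 47.1 and 66.0 in OE_control. In sh_IFI6 it stood at 55.1, 57.8 and 55.5 FPKM, and in sh_control at 0.318, 0.470 and 0.709. It was thus high in 2 groups and near 0 in the others, with no overlap.

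The log2 differences of HMG20B-212 were -5.39 ± 0.21 with overexpression, 5.26 with knockdown and 5.32 between the controls (adjusted p = 6.3e-07, 8.1e-07 and 7.1e-07 in limma). The rest of the gene stood at 96.8 ± 36.0, 90.0 ± 21.2, 80.9 ± 3.24 and 105 ± 20.9 FPKM in OE_IFI6, OE_control, sh_IFI6 and sh_control, and the member's share at 0.440%, 39.8%, 41.0% and 0.472%. Against sh_control, OE_IFI6 differed by -0.07 (adjusted p = 0.985). Another retained intron transcript of the gene, HMG20B-213, stood at 30.8, 54.0 and 3.27 FPKM in OE_IFI6 and at 35.2, 3.51 and 1.04 in OE_control. How the reads of HMG20B were divided between its transcripts was not tested.

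Members followed their genes only loosely. The part of a gene that is left when its members are subtracted was fitted for 10894 coding genes, and with overexpression 3.76% rose and 3.29% fell. In 104 genes with members this remainder fell, by a median of 0.72 on the log2 scale. Their 211 members had a median log2 difference of -0.36, 74.9% of them lay below 0, and 7 fell by the test. In 85 genes the remainder rose, and their 135 members had a median of 0.17 with none called. The 5163 members of genes whose remainder was not called had a median of -0.01. Between the controls, 2.49% of remainders rose and 4.41% fell in OE_control against sh_control, and the 177 members of the 80 genes with a rise had a median of 0.36 with 3 rises. With knockdown the share of remainders called was 0.0% in each direction.

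Across the 5509 members with a fitted remainder, the Pearson correlation between the differences of member and remainder was 0.020 with overexpression and -0.192 with knockdown. Both values come from the same libraries, members of a gene share a remainder, and reads given to one transcript are taken from another.

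**Figure D5:**
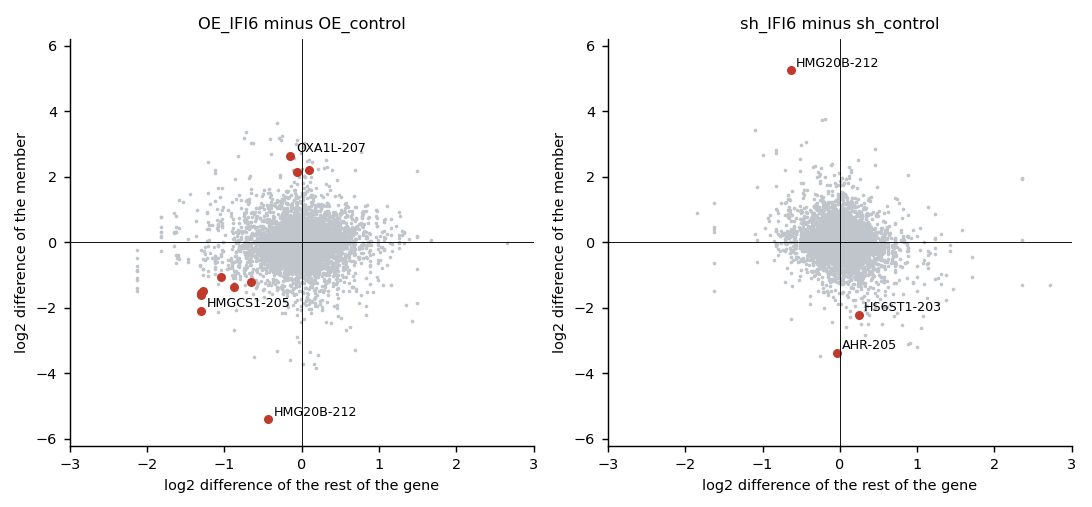
Log2 difference of each member (vertical) against that of the rest of its gene, its members subtracted (horizontal), for overexpression (left) and knockdown (right); red points passed the test and the farthest are named. In the left panel the HMGCS1 members lie with their gene, which fell by 1.30. HMG20B-212 and OXA1L-207 lie at -5.39 and 2.65, with the rest of their genes at -0.43 and -0.14, neither called.

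With knockdown, 1 member rose and 2 fell in sh_IFI6 against sh_control, where 0.0154% and 0.0308% of the transcripts tested did. At an unadjusted p under 0.05 there were 333 of the 5544 members and 367 of the 6496 transcripts tested, members included. The rise was HMG20B-212. The largest fall was AHR-205, a processed transcript of 2 exons from the gene of the aryl hydrocarbon receptor, a ligand-activated transcription factor. It lies at chr7:17335645-17339527 on the plus strand, wholly within coding transcripts' exons.

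AHR-205 stood at 0.126, 0.226 and 0.182 FPKM in sh_IFI6 and at 11.6, 9.97 and 12.0 in sh_control. It stood at 11.3, 8.92 and 12.0 FPKM in OE_IFI6 and at 20.4, 23.6 and 14.9 FPKM in OE_control, so sh_IFI6 was apart from the other 9 libraries. The log2 difference with knockdown was -3.37 ± 0.21 (adjusted p = 4.4e-05 in limma). The rest of the gene stood at 11.7 ± 0.634 FPKM in sh_IFI6 and 12.2 ± 1.56 in sh_control, and the member's share at 1.49% against 47.9%. The gene's total was therefore lower in sh_IFI6 by the amount of this 1 transcript.

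HS6ST1-203, from the gene of a heparan sulphate sulphotransferase, was the other fall. It stood at 0.229, 0 and 0.280 FPKM in sh_IFI6 and at 4.67, 6.01 and 2.93 in sh_control, with a log2 difference of -2.21 ± 0.29 (adjusted p = 0.032 in limma). It reached a mean of 1 FPKM over the 12 libraries only through sh_control, since OE_IFI6 and OE_control stood at 0.521 FPKM or less, so a difference of sh_control was built into its selection. The call ended without OE_IFI6 3, sh_control 1, sh_control 2 or any sh_IFI6 library (adjusted p 0.053 to 0.15).

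Between the controls, 4 members rose and 4 fell in OE_control against sh_control, where 0.0616% and 0.108% of the transcripts tested did. This comparison shares libraries with both others. At an unadjusted p under 0.05 there were 621 of the 5544 members, about as many as with overexpression. Among all 6496 transcripts tested, members included, there were 755. HMG20B-212, HMGCS1-205 (1.67, adjusted p = 0.033), GABRE-207 (1.40) and HERPUD1-209 (1.67) were higher in OE_control. RBMX-205 (-2.34, adjusted p = 0.033), HS6ST1-203 (-2.03, adjusted p = 0.040), SLC12A3-206 (-1.42) and HR-207 (-1.09) were lower, with limma's adjusted p at 0.0497 where none is given. HR-207 stood at 0.939 FPKM in OE_IFI6, 0.344 in OE_control, 1.71 in sh_IFI6 and 1.87 in sh_control. Its mean over the groups other than sh_control is just below 1 FPKM, so sh_control had a part in its selection.

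HERPUD1-209 comes from a gene of endoplasmic reticulum-associated degradation and held 49.7% of it. It stood at 92.9, 114 and 161 FPKM in OE_control and at 38.1, 28.2 and 46.4 in sh_control. The transcripts of the gene that are no members were higher by 2.02 (adjusted p = 0.00049). SLC12A3, the gene of the thiazide-sensitive salt transporter, and HR, the gene of a nuclear corepressor, also had lower remainders (adjusted p = 0.00091 and 0.0030). The calls of HERPUD1-209 and SLC12A3-206 ended without any 1 of the 12 libraries (adjusted p 0.054 to 0.14). HR-207 lasted without OE_IFI6 1 and GABRE-207 without OE_control 2. The call of HMGCS1-205 ended without OE_control 1, sh_IFI6 3 or any sh_control library, and those of RBMX-205 and HS6ST1-203 without OE_control 1, OE_control 3, sh_IFI6 3 or any sh_control library (adjusted p 0.053 to 0.13).

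Dividing each member by the rest of its gene asks whether it moved apart from the gene. Of 5515 members fitted, with overexpression none rose and 1 fell, HMG20B-212 (-5.46 ± 0.32, adjusted p = 3.9e-05 in limma), which is 0.0% and 0.0181% of the members fitted. MBTPS1-204 and OXA1L-207 had ratios higher by 2.20 and 3.22 (adjusted p = 0.076 for each) and did not pass. Against sh_control these ratios were higher by 2.59 and 3.83 (adjusted p = 0.039 for each), where 0.0363% of members rose and 0.0181% fell. Those calls ended without any 1 of 9 libraries each, which include every OE_control and sh_control library (adjusted p 0.051 to 0.17). The HMGCS1, CALR, GARS, GABRE and ACSS2 members differed by -0.74 to -0.12 relative to their genes, with adjusted p of 0.33 or more.

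With knockdown, HMG20B-212 rose relative to its gene and AHR-205, HS6ST1-203 and ST6GALNAC6-213 fell (0.0181% and 0.0544% of members). AHR-205 fell by 3.32 on the log2 scale (adjusted p = 0.0075 in limma), a call that ended without sh_IFI6 1 or 2 (adjusted p = 0.063 and 0.050). ST6GALNAC6-213, from the gene of a sialyltransferase, stood at 0.447, 0.573 and 0 FPKM in sh_IFI6 and at 3.41, 4.11 and 2.44 in sh_control. It too reached the mean of 1 FPKM only through sh_control, and its call (adjusted p = 0.041) lasted only without OE_control 2 or OE_control 3 among single libraries. HS6ST1-203 fell by 2.46 (adjusted p = 0.024), a call that ended without OE_IFI6 3, sh_control 1, sh_control 2 or any sh_IFI6 library (adjusted p 0.055 to 0.11).

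Between the controls, HMG20B-212 was higher relative to its gene and PTGS2-203, RBMX-205 and ST6GALNAC6-213 were lower (0.0181% and 0.0544% of members). PTGS2 encodes the inducible cyclooxygenase, and PTGS2-203 keeps an intron of 282 bases. PTGS2-203 stood at 2.04, 4.09 and 1.57 FPKM in OE_control and at 7.55, 7.06 and 6.53 in sh_control. The rest of PTGS2 went the other way, at 15.2 ± 2.21 against 9.10 ± 0.917 FPKM. The member's share was thus 14.5% in OE_control and 43.6% in sh_control, and it was 38.7% in OE_IFI6 and 38.8% in sh_IFI6. The log2 ratio differed by -1.91 ± 0.24 (adjusted p = 0.030 in limma), and the call ended without OE_control 1, OE_control 3, sh_IFI6 3 or any sh_control library (adjusted p 0.054 to 0.092). The RBMX-205 ratio (-2.14) was lost without the same libraries or OE_IFI6 2, and that of ST6GALNAC6-213 (-2.23) without any 1 but OE_control 2, sh_IFI6 2 or sh_IFI6 3 (adjusted p 0.060 to 0.13).

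By gene function, 15 lists were read from the same fits, and none held a called member with knockdown. The medians below stand beside -0.01 over the 5544 members with overexpression and 0.03 with knockdown, and members of a gene are not independent. The 61 members of 22 genes of cholesterol and fatty acid synthesis held the most calls with overexpression, 4 falls (HMGCS1-203, HMGCS1-205, HMGCS1-207 and ACSS2-207). Their median log2 difference was -0.29, and 47 lay below 0. Of all transcripts tested, 0.139% fell. The remainder fell in 10 of 37 measured genes of that list, against 3.29% of all genes fitted, and in 9 it was higher in OE_control than in sh_control (2.49% of all genes fitted). Both comparisons share OE_control, whose libraries stood apart on the first principal component, and its part in these list values was not tested.

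Endoplasmic reticulum chaperones and the unfolded protein response had 32 members with a median of -0.54 with overexpression, 25 of them below 0, and 1 fall, CALR-205. Between the controls their median was 0.40, higher in OE_control, beside -0.05 over the members. HSP90B1-208, from the gene of the chaperone GRP94, stood at 9.12 ± 2.35 FPKM in OE_IFI6 and 45.3 ± 16.7 in OE_control (log2 difference -2.16, adjusted p = 0.060 in limma). In sh_control it stood at 19.8 FPKM. Targets of the stress factor ATF4 and aminoacyl-tRNA synthetases had 73 members with a median of -0.28 and 1 fall, GARS-208, while the remainder fell in 19 of 48 genes with overexpression and was higher in OE_control than in sh_control in 18. Heat shock chaperones had 57 members with a median of -0.18 and none called, while the remainder fell in 13 of 43 genes and was higher in OE_control than in sh_control in 15. Over all genes fitted, the remainder fell in 3.29% with overexpression and was higher in OE_control than in sh_control in 2.49%.

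Genes of RNA processing differed in the share their non-coding transcripts held. The 22 members of 10 SR protein genes, splicing activators known to limit their own mRNA through such transcripts, held 41.5% of their genes' FPKM, the highest share among the 15 lists, with no test between lists. With overexpression their median log2 difference was 0.34, 5 of 22 lay below 0 and none passed. In OE_control against sh_control their median was -0.41, with 19 of 22 below 0. They held 43.2% of their genes in OE_IFI6, 38.3% in OE_control, 39.9% in sh_IFI6 and 43.8% in sh_control. SRSF2-206 stood at 6.99 ± 1.32 FPKM in OE_IFI6 and 4.14 ± 0.140 in OE_control (log2 difference 0.62, adjusted p = 0.21 in limma), and at 7.96 in sh_control. The 31 members of hnRNP genes held 24.2% of their genes and included the rise of RBMX-205, and 65 members of splicing kinases and genes known for detained introns held 32.3% with 33 below 0 and none called.

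The 196 members of 71 cytosolic ribosomal protein genes were the most numerous and held 15.8% of their genes, with a median of 0.12 and none called. Their median in OE_control against sh_control was -0.15. RPS23-202 stood at 30.8 ± 4.95 FPKM in OE_IFI6, 5.95 ± 4.61 in OE_control and 32.5 in sh_control (log2 difference 2.49 with overexpression, adjusted p = 0.12 in limma). Translation factors held the smallest share among the lists, 6.60% over 96 members, with a median of -0.04. EIF3D-204 stood at 39.1 ± 42.4 FPKM in OE_IFI6 and 1.01 ± 0.442 in OE_control, a difference that the spread between libraries exceeds (adjusted p = 0.35 in limma).

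Glycolysis and hypoxia genes had 79 members with a median of -0.33 and none called, and mitosis genes 31 with a median of -0.30 and none called. In OE_control against sh_control the medians of these lists were 0.16 and 0.15. CKS1B-204, from the gene of a cyclin-dependent kinase subunit, stood at 9.08 ± 4.5 FPKM in OE_IFI6 and 27.3 ± 4.27 in OE_control (log2 difference -1.57, adjusted p = 0.12 in limma). In sh_control it stood at 8.79 FPKM. Interferon-stimulated genes, the family of IFI6, had 26 members of 11 genes with a median of -0.17 and none called. Their median in OE_control against sh_control was 0.20. B2M-212, from the gene of the light chain of MHC class I, stood at 5.50 ± 2.33 FPKM in OE_IFI6 and 16.2 ± 3.92 in OE_control (log2 difference -1.45, adjusted p = 0.12 in limma). In sh_control it stood at 8.46 FPKM. Respiratory chain genes (88 members), the proteasome (49) and decay factors of the nonsense-mediated pathway and exosome (24) had medians of -0.05, -0.13 and 0.04 with none called. In OE_control against sh_control these were 0.01, 0.19 and -0.17.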

How the data were processed

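Total RNA libraries of 12 samples in 4 groups were used. The deposited values are FPKM, computed by the authors per transcript and per gene. The aligner HISAT2, the assembler StringTie, and Cuffdiff and edgeR appear in the submitters' processing notes without version. Genome build, annotation and strand use were not given in the sources used here. Deposited gene values equal the sum of transcript values within 0.01 FPKM for 19771 of 19771 coding genes. Of 5520 members matched to GENCODE 29 (GRCh38), 99.9% had the same bounds, so types, introns and sequences were taken from it. Low values lay on steps, but only 2.43% to 31.3% per library came within 1% of a whole step (21253 single-transcript genes), so whole reads were not recovered and depth is unknown.

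Limma 3.58.1 (R 4.3.3) with a trended prior fitted log2(FPKM + 1), a scale that understates changes near 1 FPKM, in 1 group-means model over 12 libraries (8 residual degrees of freedom). It was fitted to 6496 lncRNA-table transcripts, to member-to-rest ratios of 5515 members and to gene remainders. The remainder fit was added after the data were seen. All tests were two-sided. The threshold was 0.05 on p-values adjusted by Benjamini-Hochberg, and the fit was checked on simulated data. Python 3.11.15 with scipy 1.17.1 gave exact permutation tests. The members and the gene lists were chosen with earlier results of these data known. Named members were the 10 of highest mean (1 of them is not reported here), per comparison the 8 largest called rises and falls of level and 6 of ratio without overlap between the groups, up to 4 of smallest p per list, the 2 on each side of the threshold and the 3 genes with most members.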

Additional observations from a re-analysis of the deposited data

Results flagged for a closer look

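The effect of overexpression differed from that of knockdown, by the limma test of the difference itself, for 3 of the 5544 members. Over the 6496 transcripts tested, 0.0308% had a higher and 0.0154% a lower overexpression effect. For HMG20B-212 the difference between the effects was -10.65 ± 0.29 on the log2 scale (SE; adjusted p = 2.1e-08), since the transcript fell by 5.39 with overexpression and rose by 5.26 with knockdown. For RBMX-205 it was 3.35 ± 0.43 (adjusted p = 0.0295), from 2.21 with overexpression and -1.15 with knockdown, and it did not pass without OE_IFI6 2, OE_IFI6 3, OE_control 1, sh_IFI6 2, sh_IFI6 3 or any sh_control library (adjusted p 0.055 to 0.084). For AHR-205 it was 2.57 ± 0.30 (adjusted p = 0.016), from -0.80 with overexpression and -3.37 with knockdown, and it did not pass without sh_IFI6 2 or sh_IFI6 3 (adjusted p 0.061 to 0.081). The HMG20B-212 difference passed with each single library left out. The 2 controls differed from each other for HMG20B-212 and RBMX-205, by 5.32 and -2.34, so these differences hold the difference between the controls as well. Its part in the result was not tested.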

How the results depend on the processing

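Level calls with overexpression numbered 11 and were 27 with a minimum mean of 5 FPKM, 2 with no filter, 5 with the 6 libraries alone, 4 with the replicate block and 3 with sh_control as the control. Knockdown had 3 calls, and 9 with the 6 libraries alone. The controls had 8 calls, which became 5 with a pseudocount of 0.1, 23 with a minimum of 5 FPKM, 2 with no filter, 4 with a robust prior, 15 with the 6 libraries alone and 3 with the replicate block. The difference between the effects had 3 calls, then 6 with a minimum of 5 FPKM, 1 with no filter and 1 with the replicate block. Ratio calls with overexpression went from 1 to 4 with a minimum of 5 FPKM, 2 without the trend, 2 with the 6 libraries alone and 3 with sh_control. Ratio calls with knockdown went from 4 to 2 with a pseudocount of 0.1, and between the controls from 4 to 10 with the 6 libraries alone and 1 with the replicate block. A stricter minimum and a missing filter change how many transcripts are tested, and for the other settings the cause was not tested. Among changed settings, the share of all transcripts called was computed only for overexpression with a minimum of 5 FPKM (1.32% rose, 1.47% fell) and with sh_control as the control. The other counts here, and those with single libraries left out, have no such share beside them.

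With single libraries left out, level calls ranged from 3 to 18 with overexpression, 2 to 8 with knockdown, 1 to 9 between the controls and 1 to 7 for the difference between the effects. Ratio calls ranged from 1 to 8, 1 to 6 and 2 to 7. The difference in the members' share ranged from 0.164 to 0.566 percentage points with overexpression, 0.491 to 0.899 with knockdown and -0.982 to -0.572 between the controls. As a median over members it turned to -0.189 with overexpression. With sh_control as the control RBMX-205 turned to -0.13 and the ratio of HMG20B-212 to 0.0925. Among single members, 1605 recomputed values kept their direction and side of the threshold, 347 lost their call, 16 gained one and 2 reversed. The 1605 include values of members that had no call to lose, such as B2M-206 and CLK1-210, so they do not measure how firm the calls are. GARS-208 lost its call with overexpression in 16 of 22 settings. HERPUD1-209 and SLC12A3-206 lost theirs between the controls in 18 of 21 and 17 of 20. HMG20B-212 kept its level call with overexpression in 21 of 22 settings, and AHR-205 its call with knockdown in 21 of 21.

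Same-numbered libraries did not deviate together (correlations 0.057 to 0.082 for the overexpression pair, -0.047 to 0.014 for the knockdown pair), so the replicate block, which cut the overexpression calls from 11 to 4, is not taken as a pairing. Depth is unknown, so what it limits was not tested, and with 3 libraries a group the share test cannot pass.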

Other observations

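Restricting the overexpression fit to transcripts of at least 5 FPKM, where the spread is smaller, called 27 members. Of these, 11 were higher and 16 lower in OE_IFI6 than in OE_control, as were 1.32% and 1.47% of the 1360 transcripts in that fit. Some of the 27 reached the minimum only through the group in which they were high, so part of their difference was built into the selection. Among the 16, 7 came from genes whose remainder fell too, as did 56 of the 1213 members of that level with a fitted remainder (4.62%). These included HERPUD1-209, the main non-coding transcript of a gene of endoplasmic reticulum-associated degradation (45.2 ± 6.62 against 122 ± 34.7 FPKM, log2 difference -1.39), and PIM3-202, from the gene of a survival kinase (12.3 ± 0.827 against 20.5 ± 2.17, -0.69). Some of the 7 come from the same gene (HMGCS1 or HERPUD1) and so share a remainder. TMEM106C-211, from a gene of a membrane protein, was at 133 ± 23.0 against 216 ± 15.6 FPKM (-0.71) and held 55.2% of its gene. NAP1L4-209, from the gene of a histone chaperone, was at 0.749 ± 0.297 against 23.8 ± 4.75 FPKM (-3.82). In sh_control HERPUD1-209, PIM3-202, TMEM106C-211 and NAP1L4-209 stood at 37.6, 10.4, 159 and 6.84 FPKM, all below OE_control.

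Among the 11 that were higher, 1 came from a gene whose remainder rose, as did 26 of those 1213 members (2.14%). They included MRPS30-201 from the gene of a mitochondrial ribosome protein (15.5 ± 3.26 against 7.05 ± 0.859 FPKM, log2 difference 1.02), NIP7-205 from the gene of a ribosome assembly factor (9.75 ± 0.2 against 3.07 ± 1.07, 1.44), ID3-203 from the gene of an inhibitor of differentiation (34.7 ± 4.46 against 19.1 ± 1.77, 0.82) and PIEZO1-208 from the gene of a mechanosensitive channel (10.1 ± 1.23 against 5.06 ± 1.39, 0.89). In sh_control these 4 stood at 15.5, 4.42, 34.6 and 11.1 FPKM. None of the 8 named here passed in the fit to all transcripts of at least 1 FPKM, and they were chosen after their values were seen.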
